A study of Homo sapiens with 4 samples.

Results

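Aminoacyl-tRNA synthetases join each amino acid to its transfer RNA, the step that supplies the ribosome with building blocks. The 38 members were listed by symbol: 19 cytosolic synthetases or their subunits, 3 scaffold proteins of the cytosolic multisynthetase complex (AIMP1, AIMP2 and EEF1E1), and 16 mitochondrial synthetases, each marked by the suffix 2. Of the 38, 33 had at least 1 probe set annotated to that symbol alone, with 70 probe sets in all, and 60 of these probe sets passed the filter on low signals. All 33 genes had a probe set past the filter and were tested, among 14337 genes in all: 17 cytosolic enzymes, 15 mitochondrial enzymes and AIMP1. Probe sets annotated to MARS1, QARS1 and TARS2 carried a microRNA symbol as well, so the rule passed these genes over. They enter no count of changes but do enter the counts of sequence windows below. The changes of AIMP2 and EEF1E1 were not analysed here.

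Expression was measured on 4 Affymetrix arrays, 1 for each combination of HCT116 wt or HCT116 wt/GFP with growth as a monolayer, a flat layer of attached cells, or as spheroids, which are rounded aggregates of many cells. HCT116 is an established human colon carcinoma cell line, shared by all 4 arrays, and the labels say no more of the wt/GFP version than its name. The study set both cultures side by side to characterise how gene expression differs between them. Values are MAS5 signals, in arbitrary units of brightness, and a change is the difference of log2(signal + 14.0) between spheroids and monolayer, averaged over the 2 lines. Each condition thus had 2 arrays, nothing states that they came from repeated cultures, and p-values measure only how far the changes of the 2 lines lay apart, moderated over all genes.

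Cells hold separate sets of these enzymes, both encoded in the nucleus: one charges tRNA for cytosolic ribosomes, the other is imported to serve the ribosomes of mitochondria. GARS1 and KARS1 serve both compartments from a single gene. In the cytosol several enzymes sit together in the multisynthetase complex, held by the AIMP scaffolds, while the others act as free enzymes. When uncharged tRNA accumulates, the kinase GCN2 raises translation of ATF4, a transcription factor known to bind elements with the letters TGATGNAA near many cytosolic synthetase genes.

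The array files hold no sequence, so the bases around the starts of the members were taken from RefSeq (GRCh38.p14). Windows of 300 bases, 250 before and 50 after each annotated start, were found for 33 members. They are shown because this element is the best known sequence shared by synthetase genes, and the lines below give the match in capitals, 5′ to 3′ on the strand of the gene, with 10 bases on either side. The search covered both strands, so TTGCATCA is the element read on the other strand.
AARS1, chr16:70289676-70289703, minus strand: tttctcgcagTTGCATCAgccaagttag
CARS1, chr11:3057408-3057435, minus strand: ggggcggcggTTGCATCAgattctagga
GARS1, chr7:30594835-30594862, plus strand: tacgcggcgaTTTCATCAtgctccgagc
IARS1, chr9:92293693-92293720, minus strand: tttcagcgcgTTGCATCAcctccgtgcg
MARS1, chr12:57488054-57488081, plus strand: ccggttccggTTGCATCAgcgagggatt
NARS1, chr18:57621805-57621832, minus strand: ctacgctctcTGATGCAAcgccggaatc
TARS1, chr5:33440957-33440984, plus strand: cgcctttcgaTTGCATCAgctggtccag
YARS2, chr12:32756077-32756104, minus strand: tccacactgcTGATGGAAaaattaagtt
The letters TGATGNAA stood in a window of 7 of 16 cytosolic synthetases with a window, or 43.8%, and of 1 of 14 mitochondrial synthetases, or 7.14%. Among all 27305 genes with a window 4.46% held them. In 6 of the 8 members the variable base was C, giving TGATGCAA. Counted from the start, with bases before it negative, the match began at -2 in CARS1, -4 in MARS1, -13 in IARS1, -33 in GARS1, 3 in TARS1, 15 in NARS1, -187 in AARS1 and -197 in YARS2. LARS1, VARS1, YARS1, AARS2 and VARS2 had no window. A match is a description of letters and does not show that a factor binds there.

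In spheroids 10 of the 17 cytosolic synthetases fell, 1 rose and 6 did not pass the test. Over all genes tested 18.6% fell and 30.7% rose, 49.2% in all, at an adjusted p under 0.05. The median log2 change of the cytosolic enzymes was -0.38, (wt -0.53, wt/GFP -0.28), against a median of 0.23 over all genes. Of the 15 mitochondrial synthetases 6 fell, 2 rose and 7 did not pass, with a median of -0.34 (wt -0.25, wt/GFP -0.16). The cytosolic median lay 0.04 below the mitochondrial one (-0.04), a gap smaller than the difference between the lines within either group. It was 0.03 above it after quantile normalization and 0.18 below it (-0.18) when all probe sets of a gene were averaged. Within each line the cytosolic median was the lower one, at -0.53 against -0.25 in wt and -0.28 against -0.16 in wt/GFP. In fits that left out 1 array the gap ran from -0.05 to -0.14. The gap was not tested. AIMP1, the one scaffold measured, fell. Falls of at least 2-fold were called for WARS1, YARS1 and FARSB among the cytosolic enzymes and for YARS2 among the mitochondrial ones, where 5.04% of all genes met that rule. In whole cultures, fewer cells with a transcript and less of it in each cell cannot be told apart.

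**Figure D1:**
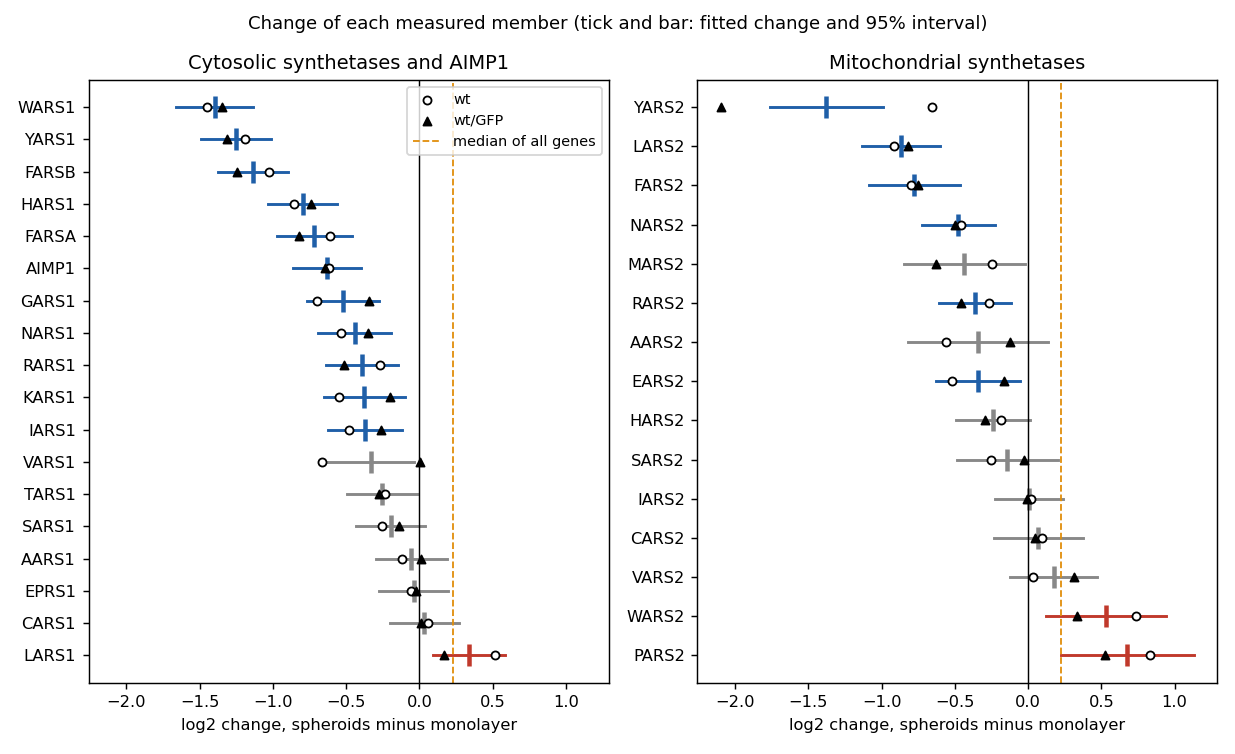
Log2 change (spheroids minus monolayer, x axis) of the 17 cytosolic synthetases and AIMP1 (left) and the 15 mitochondrial synthetases (right); the coloured tick and bar are the fitted change and its 95% interval (blue called lower, red called higher, grey not called), circles are wt, triangles are wt/GFP, and the dashed line is the median of all genes at 0.23. The lines lie close together for WARS1 (-1.45 and -1.35) and far apart for YARS2 (-0.66 and -2.10).

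The 4 arrays had equal trimmed means, but the median signal was higher in spheroids (67.3 and 68.4) than in monolayers (48.0 and 48.8). The ratio of 3′ to 5′ probe sets of ACTB, a measure of RNA integrity, was 1.76 and 1.73 in spheroids and 1.32 and 1.30 in monolayers, while that of GAPDH was 0.868 and 0.951 in spheroids and 0.897 and 0.882 in monolayers. The part of the ACTB ratio in the changes below was not tested. Of 10 colon epithelium markers 9 passed the filter, with summed signals of 86507 to 104911 in monolayers and 113792 to 115152 in spheroids; EPCAM, KRT8, KRT18 and KRT19 were bright on every array, whereas CDX2, VIL1, LGALS4 and CEACAM5 were dim, with a highest signal of 204 for CEACAM5 in the wt/GFP spheroids. CDH1, which encodes E-cadherin, rose by 2.36. Of 7 fibroblast markers 3 passed, with sums of 447 to 476 in monolayers and 2441 to 4087 in spheroids. COL1A1 had signals of 303 and 338 in monolayers and 2275 and 3780 in spheroids, where it made up nearly all of the sum. For 5 endothelial markers (1 passed) the sums were 146 to 183 and 261 to 301. Of 6 leukocyte markers 5 had a named probe set and 3 passed, with sums of 92.6 to 178 and 439 to 441. LYZ rose, with signals of 32.0 and 9.61 in monolayers and 290 and 328 in spheroids, while CD3E and CSF1R were not called. The part of these markers in the synthetase changes was not tested.

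Among the cytosolic enzymes the fall of WARS1 was the largest. WARS1 charges tRNA with tryptophan and is known as a gene induced by interferon. The wt and wt/GFP monolayers had signals of 2427 and 2433, and their spheroids 881 and 948. The monolayer arrays nearly met, and both spheroid arrays lay far below them. The log2 change was -1.40 ± 0.13 (SE, 2 arrays per condition), a 2.63-fold fall (limma adjusted p = 4.06e-10), and its other probe set gave -1.41. A second annotated start of WARS1 holds the core of the interferon-stimulated response element, GAAA, any 2 bases and GAAA again, beginning at -55. These letters were searched on both strands, and 4.38% of all genes with a window held them. They are shown for WARS1 because of its known induction by interferon.
WARS1, chr14:100375383-100375412, minus strand: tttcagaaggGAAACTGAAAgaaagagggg
The letters were also found in windows of EARS2, and in those of no other member.

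YARS1, which charges tyrosine and whose protein can be cut into fragments with cytokine activity, had signals of 6078 and 5522 in monolayers and 2659 and 2210 in spheroids. Both lines more than halved their signal. The log2 change was -1.25 ± 0.12, or 2.38-fold lower (adjusted p = 4.56e-10). A second, dim YARS1 probe set, at 22.6 and 68.2 in monolayers and 59.4 and 119 in spheroids, pointed the other way with a value of 0.85 that did not pass (adjusted p = 0.145 with every probe set tested on its own, where 16.1% of probe sets fell and 26.6% rose). The mean of both probe sets was -0.20 and not called (adjusted p = 0.289), so the fall of YARS1 rests on the bright one.

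Phenylalanyl-tRNA synthetase of the cytosol is built of alpha subunits from FARSA and beta subunits from FARSB, and both fell. FARSB signals were 7067 and 6283 in monolayers and 3457 and 2641 in spheroids, a log2 change of -1.14 ± 0.12 (adjusted p = 3.08e-09). FARSA signals were 2303 and 2424 in monolayers and 1502 and 1364 in spheroids, a change of -0.72 ± 0.12 (adjusted p = 1.97e-05), and its other probe set gave -1.13. How far FARSA fell thus depends on the probe set read. In both genes the spheroid arrays lay below both monolayer arrays, as they did in 26.5% of all genes tested. A dim second FARSB probe set, at 66.6 and 85.8 in monolayers and 102 and 79.7 in spheroids, had a value of 0.22 (adjusted p = 0.694), and with probe sets averaged the change of FARSB was -0.46 (adjusted p = 0.0356).

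HARS1, the histidine enzyme, had signals of 6020 and 5731 in monolayers and 3317 and 3432 in spheroids. Arrays of one culture lay within a few percent of each other. The change was -0.80 ± 0.11, or 1.74-fold lower (adjusted p = 1.21e-06). HARS2, its mitochondrial counterpart, is the neighbouring gene and is read in the opposite direction: the annotated starts of HARS1 and HARS2 are separated by 84 bases, printed here from RefSeq (GRCh38.p14) because one short stretch lies upstream of both.
HARS1 to HARS2, chr5:140691371-140691454, plus strand: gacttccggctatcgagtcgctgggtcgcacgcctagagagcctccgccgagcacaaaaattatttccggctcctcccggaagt
Bases G and C made up 59.5% of this stretch. HARS2 signals were 2167 and 2104 in monolayers and 1905 and 1712 in spheroids. Both spheroid arrays were lower, but the change of -0.24 ± 0.12 did not pass (adjusted p = 0.106, 95% interval -0.49 to 0.01). The change of HARS1 was 0.67 below that of HARS2 in wt (-0.67) and 0.44 below it in wt/GFP (-0.44), a difference that was not tested.

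**Figure D2:**
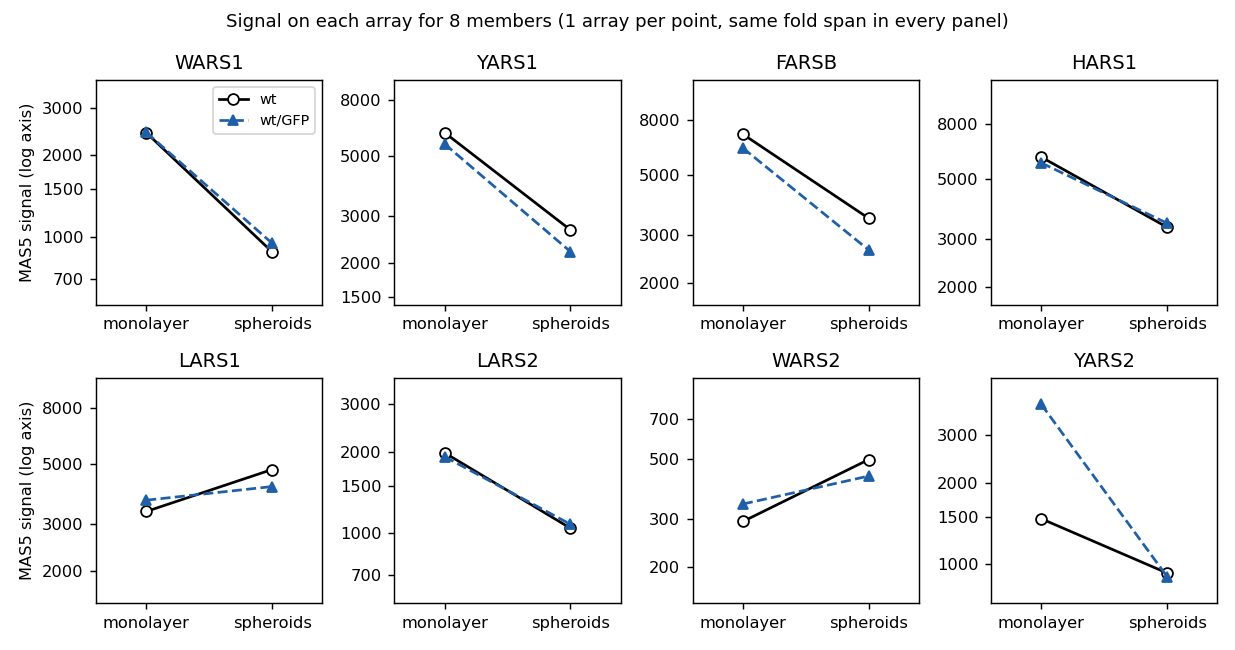
MAS5 signal (y axis, log scale, each panel spanning the same fold range) of 8 members on each array, with circles and solid lines for wt and triangles and dashed lines for wt/GFP. WARS1, YARS1, FARSB, HARS1 and LARS2 are lower in both spheroid arrays, LARS1 and WARS2 are higher, and the wt/GFP monolayer array of YARS2 stands at 3901 against 1475 in wt.

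Smaller falls were called for GARS1, NARS1, RARS1, KARS1 and IARS1, which charge glycine, asparagine, arginine, lysine and isoleucine. GARS1 signals were 9506 and 7386 in monolayers and 5842 and 5811 in spheroids, a change of -0.52 ± 0.12 (adjusted p = 0.000563). NARS1 had 17231 and 14792 in monolayers and 11913 and 11607 in spheroids, a change of -0.44 ± 0.12 (adjusted p = 0.00336). For both genes the wt monolayer array was the highest and the spheroid arrays nearly met. RARS1, an enzyme of the multisynthetase complex, had 10863 and 12303 in monolayers and 9001 and 8618 in spheroids, a change of -0.39 ± 0.12 (adjusted p = 0.00732). KARS1, also of the complex, had 34902 and 26905 in monolayers and 23833 and 23389 in spheroids, a change of -0.38 ± 0.13 (adjusted p = 0.0217), and -0.83 on its other probe set. IARS1, another complex member, had 16851 and 15076 in monolayers and 12080 and 12570 in spheroids, a change of -0.37 ± 0.12 (adjusted p = 0.0129). In all 5 genes both spheroid arrays lay below both monolayer arrays, as they did in 26.5% of all genes tested. Without the cell line in the fit KARS1 lost its call (adjusted p = 0.0948). Without the wt monolayer array the change of KARS1 was -0.19 (adjusted p = 0.269) and that of GARS1 -0.34 (adjusted p = 0.103).

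LARS1, the leucine enzyme of the complex, was the one that rose among the 17 cytosolic synthetases tested, which do not include MARS1 and QARS1 of the same complex. Monolayers had signals of 3331 and 3666 and spheroids 4759 and 4117, a change of 0.34 ± 0.12 (adjusted p = 0.0189). The rise was 0.51 in wt and 0.17 in wt/GFP, not far from the median of all genes, and its sign turned under 2 other scalings of the arrays, to their median signal (-0.05) and to the hybridisation controls (-0.25). Its 3 other probe sets gave 0.90, 0.24 and 0.05.

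The 6 cytosolic enzymes that did not pass were VARS1, TARS1, SARS1, AARS1, EPRS1 and CARS1, with values from -0.33 to 0.03. VARS1, the valine enzyme, differed most between the lines: its signal was 1670 and 1047 in the wt monolayer and spheroids, and 1615 and 1620 in those of wt/GFP. One line thus had a lower signal in spheroids and the other the same, with a mean of -0.33 ± 0.14 (adjusted p = 0.0565). TARS1, the threonine enzyme, and SARS1, the serine enzyme, had values of -0.25 (adjusted p = 0.0700) and -0.20 (adjusted p = 0.160), and both spheroid arrays were below both monolayer arrays. AARS1 for alanine had -0.05 with a 95% interval of -0.30 to 0.19, and EPRS1, which charges both glutamate and proline, had -0.04 with an interval of -0.27 to 0.19. CARS1 for cysteine had 0.03 on its brightest probe set (7465 and 6858 in monolayers, 7784 and 6900 in spheroids). A dim CARS1 probe set read 144 and 138 in monolayers and 9.75 and 20.7 in spheroids; both spheroid signals were below the signal of 30.6 that marks the filter, so no fold is given. The CARS1 probe sets disagreed, and the other 2 had values of 0.19 (adjusted p = 0.332) and -0.41 (adjusted p = 0.0766).

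Of the 5 measured enzymes of the multisynthetase complex, 3 fell and 1 rose, with a median of -0.37. Of the 12 free cytosolic enzymes 7 fell and none rose, with a median of -0.48. Over all genes tested 18.6% fell and 30.7% rose. With moderation without trend 0 of the complex enzymes and 4 of the free ones were called lower, beside 8.2% of all genes. With no filter the counts were 1 and 7, beside 2371 of 19775 genes. The scaffold AIMP1 had signals of 6726 and 6269 in monolayers and 4372 and 4015 in spheroids. Both lines changed alike, by -0.62 and -0.64, giving -0.63 ± 0.11 (adjusted p = 3.48e-05), and its other probe sets gave -0.40 and -0.42. The 6 measured cytosolic enzymes with TGATGNAA near the start had changes from -0.52 to 0.03, with 3 that fell and a median of -0.31. The 8 measured ones with a window and no match had changes from -1.40 to -0.04, with 6 that fell and a median of -0.55. These ranges overlap and were not tested against each other, and 18.6% of all genes fell.

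Among the mitochondrial enzymes LARS2 and FARS2 fell in step in both lines. LARS2, which charges leucine, had signals of 1982 and 1918 in monolayers and 1044 and 1080 in spheroids. Its change was -0.87 ± 0.13, or 1.83-fold lower (adjusted p = 1.95e-06), and -1.05 on its other probe set. FARS2, a single-chain phenylalanine enzyme, had 1061 and 948 in monolayers and 602 and 557 in spheroids, a change of -0.78 ± 0.15 (adjusted p = 9.33e-05), and -0.68 on its other tested probe set. NARS2 for asparagine had 2326 and 2261 in monolayers and 1693 and 1596 in spheroids, a change of -0.48 ± 0.12 (adjusted p = 0.00171). RARS2 for arginine had 2775 and 2890 in monolayers and 2306 and 2102 in spheroids, a change of -0.36 ± 0.12 (adjusted p = 0.0131). EARS2 for glutamate had 1334 and 1183 in monolayers and 928 and 1055 in spheroids, a change of -0.34 ± 0.14 close to the threshold (adjusted p = 0.0458, and 0.0518 without the cell line in the fit). With probe sets averaged neither RARS2 (-0.15, adjusted p = 0.380) nor EARS2 (-0.18, adjusted p = 0.394) was called. In each of these 5 enzymes the spheroid and monolayer arrays did not overlap. Over all genes both spheroid arrays lay below both monolayer arrays in 26.5% and above both in 47.1%, against 23 and 3 of the 33 members.

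YARS2, the mitochondrial tyrosine enzyme, had the lowest mean change of the mitochondrial group, but the lines lay far apart in the size of the fall. Its signal was 1475 in the wt monolayer, 3901 in the wt/GFP monolayer, and 930 and 902 in the spheroids. The spheroid arrays nearly met, while the monolayer arrays stood far apart. The mean change was -1.38 ± 0.19 (adjusted p = 4.73e-07), from -0.66 in wt and -2.10 in wt/GFP. It was -2.07 without the wt monolayer array and -0.68 without the wt/GFP monolayer array, and the call was lost with robust moderation (adjusted p = 0.144) and with moderation without trend (adjusted p = 0.0951). YARS2 has a single probe set, and with 1 array per line and culture the difference in the fall between the lines was not tested.

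PARS2 and WARS2 rose. PARS2, the mitochondrial proline enzyme, had signals of 233 and 230 in monolayers and 425 and 337 in spheroids, a change of 0.68 ± 0.22 (adjusted p = 0.0120). WARS2, the mitochondrial tryptophan enzyme, had 294 and 341 in monolayers and 497 and 432 in spheroids, a change of 0.53 ± 0.20 (adjusted p = 0.0283), and 1.22 on a dimmer probe set. Both genes were higher in both spheroid arrays, but their values of 0.35 and 0.25 after quantile normalization did not pass, and relative to the hybridisation controls they were 0.09 and -0.06. The other 7 mitochondrial enzymes did not pass, with values from -0.44 for MARS2 to 0.17 for VARS2. IARS2 for isoleucine had nearly the same signal everywhere, 6179 and 6087 in monolayers and 6264 and 6054 in spheroids, a value of 0.01 with a 95% interval of -0.23 to 0.24.

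Setting the cytosolic enzyme beside the mitochondrial enzyme for the same amino acid gave 15 pairs, with EPRS1 and FARS2 each used in 2 of them. In 5 pairs both members fell: both phenylalanine pairs, asparagine, arginine and tyrosine. In 2 pairs the calls were opposite. WARS1 fell while WARS2 rose, a gap of -1.93 in the mean (-2.18 in wt and -1.68 in wt/GFP), and LARS1 rose while LARS2 fell, a gap of 1.21 (1.43 and 0.99). In 4 pairs one member was called and in 4 neither was. The cytosolic change was the lower one in both lines in 9 pairs, the mitochondrial one in 3, and in 3 the lines disagreed. Among the 9 were the cysteine, arginine and serine pairs, with mean gaps of only -0.04, -0.03 and -0.06. Each of these was smaller than the standard error of either member of the pair. The 3 pairs on the other side had mean gaps of 0.29 to 1.21. These gaps within pairs do not move when an array is rescaled by one factor, and they were not tested. They can move with the probe set read. With probe sets averaged YARS1 was at -0.20 and YARS2 at -1.38, and CARS1 was at -0.66 and CARS2 at -0.21. Neither LARS1 nor WARS2 was called higher after median centring or on the scale of the hybridisation controls.

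**Figure D3:**
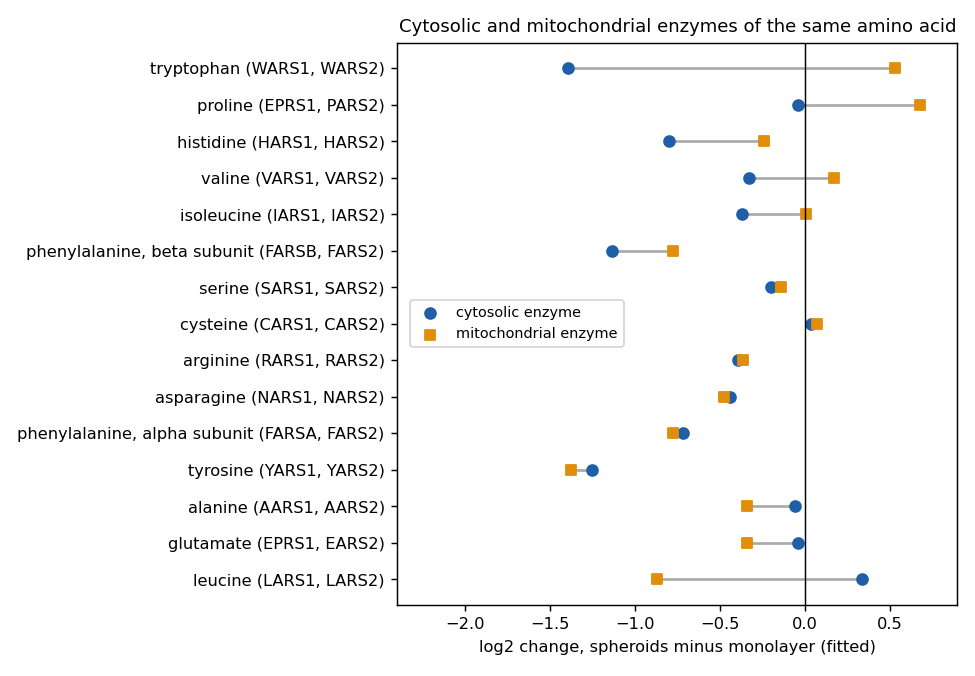
Fitted log2 change (spheroids minus monolayer, x axis) of the cytosolic (circle) and mitochondrial (square) enzyme for each amino acid, ordered by the gap between them. Tryptophan and leucine lie at the ends with gaps of -1.93 and 1.21, while the arginine and asparagine enzymes nearly coincide.

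Scaling decided how many members were called but did not turn the medians. As deposited, all genes had a median of 0.23. Quantile normalization moved it to 0.02, median centring to -0.17, and the hybridisation controls as a scale to -0.37. The cytosolic median was -0.38, -0.32, -0.77 and -0.97 under these scalings, in that order, and the mitochondrial one -0.34, -0.35, -0.73 and -0.93. Under all 4 scalings the same 10 cytosolic enzymes, 5 mitochondrial ones (EARS2, FARS2, LARS2, NARS2 and YARS2) and AIMP1 were called lower, and no member was called higher. Of all genes, quantile normalization called 21% lower and 23.6% higher, median centring 32.4% and 16.4%, and the scale of the hybridisation controls 26.2% and 6.92%. Those controls, added to every sample, were higher on the spheroid array by 0.39 in wt and 0.79 in wt/GFP.

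**Figure D4:**
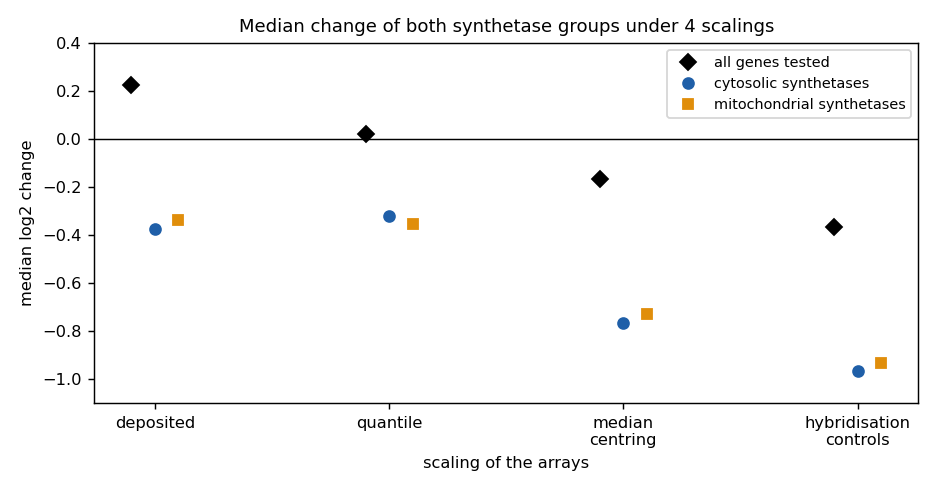
Median log2 change (y axis) of all genes tested (diamonds), cytosolic synthetases (circles) and mitochondrial synthetases (squares) under 4 scalings of the arrays. Both synthetase medians lie below that of all genes in each, by 0.34 to 0.60 for the cytosolic enzymes.

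Of the 20 called members, 9 were called in every fit that left out 1 array: FARSA, FARSB, HARS1, WARS1, YARS1, AIMP1, FARS2, LARS2 and YARS2. The other 11 lost the call in at least 1 such fit. The loss was most frequent without the wt monolayer array, with 9 of the 20, and without the wt spheroid array, with 8. It was 5 without the wt/GFP monolayer array and 4 without the wt/GFP spheroid array. Without the wt monolayer array the calls lost were those of GARS1, IARS1, KARS1, LARS1, NARS1, EARS2, NARS2, RARS2 and WARS2, and without the wt spheroid array those of IARS1, KARS1, LARS1, NARS1, RARS1, EARS2, PARS2 and WARS2. Without the wt/GFP monolayer array LARS1, RARS1, EARS2, PARS2 and RARS2 lost the call, and without the wt/GFP spheroid array IARS1, KARS1, NARS1 and RARS1. The cytosolic enzymes called lower numbered 6 without either wt array, and the mitochondrial ones 3 without the wt monolayer array.

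Genes that act just before or after tRNA charging were read from lists drawn up by function. Of 21 tested genes of tRNA maturation and export 17 fell and none rose, against 18.6% lower and 30.7% higher over all genes, and the median was -0.79. POP5, POP4 and RPP40, subunits of ribonuclease P, which trims the 5′ end of tRNA, had log2 changes of -1.46, -1.08 and -1.06, and ELAC1, an endonuclease of the 3′ end, had -1.46. With moderation without trend 11 of the 21 were called lower, against 8.2% of all genes lower and 18.5% higher, and after quantile normalization 1 was called higher. Of 7 partners of mitochondrial charging and elongation 4 fell and 1 rose, and with moderation without trend 2 fell. TSFM, the mitochondrial elongation factor Ts, fell by 1.06, and QRSL1 and GATB, subunits of the amidotransferase that makes mitochondrial glutaminyl-tRNA, had changes of -0.84 and -0.70. GATC, the remaining subunit of that enzyme, rose by 1.02 ± 0.13 in the mean, with 1.04 in wt and 1.01 in wt/GFP (adjusted p = 2.28e-07), a call lost on the scale of the hybridisation controls. A list of 8 genes, 7 of them tested, covered proofreading, selenocysteine charging and related steps. PPA1 and EEFSEC were among the 7, and neither was called. Of these 7 genes 3 fell (DTD1 at -0.80, SEPSECS at -0.77 and SEPHS1 at -0.70) and 1 rose. The call higher was lost under the 3 other scalings, with no filter, with moderation without trend, and without the wt spheroid array or either wt/GFP array; those lower numbered 5 on the scale of the hybridisation controls and 1 with moderation without trend. Of 3 measured genes of elongation factor 1, the factor that carries charged tRNA to the ribosome, EEF1A1 rose by 0.41 and none fell. The lines lay apart for EEF1A1, with 0.15 in wt and 0.68 in wt/GFP. None of the 3 was called higher without the cell line in the fit, with no filter, or with moderation without trend. The same held after median centring and on the scale of the hybridisation controls. After median centring and on the scale of the hybridisation controls 1 of the 3 was called lower.

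Of 21 genes of the integrated stress response and ATF4 target list 11 fell and 1 rose, beside 18.6% and 30.7% of all genes, and the median was -0.40. SLC7A5 and SLC3A2, which together form a transporter of leucine and other large amino acids, had changes of -1.57 and -1.43, and PSAT1, an enzyme of serine synthesis, had -1.30. After median centring 17 of the 21 were called lower (32.4% of all genes), and with moderation without trend 5 (8.2%). Without shared probe sets, where 11224 genes rather than 14337 could be tested, 6 of the list were called lower, beside 1702 of all genes. CEBPB, a transcription factor that can pair with ATF4, rose by 1.27, while ATF4 itself had a value of -0.09 (adjusted p = 0.603).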

How the data were processed

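The deposited values are intensities on a linear scale, MAS5 signals per the submitters' processing notes, which name no settings. Of 54675 probe sets, 41091 had 1 symbol, 1801 several and 11721 none; 62 were controls. Symbols came from the platform annotation and were updated through gene identifiers for 41037. Signals were taken as log2(signal + 14.0), the pseudocount being the 25th percentile of all values, which understates changes of dim genes. Probe sets with a mean log2 above the 40th percentile (5.48) were kept, and each gene took its brightest one, giving 14337 genes.

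Culture and cell line were fitted with limma 3.58.1 (R 4.3.3) under trended moderation (1 residual and a median of 26.7 prior degrees of freedom). P-values are two-sided, with Benjamini-Hochberg adjustment over all genes. The labels name the line of every array, which gives the pairing; the line difference in monolayers and that in spheroids had a correlation of 0.00683 across genes. Simulated data with 14337 genes, only a small part of them changed and no difference between the lines, recovered 69% of 2-fold and 92% of 4-fold changes. On the arrays 49.2% of genes were called, so these rates do not carry over to this comparison. The members and lists were chosen with earlier results of these data known, and the lists were not tested as sets. Every member could be named, and up to 4 tested genes of each other list by size of change. PPA1 was named outside this rule, without its value, and ATF4 was named after its value was seen. The number of arrays limits the precision. Alternatives were other scalings, pseudocounts, filters, probe set rules and moderation, no cell line term, and leaving out each array.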

Additional observations from a re-analysis of the deposited data

Results flagged for a closer look

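For 3 members, none of them called, the values of the lines had opposite signs; at least 1 value of each was near 0 and far smaller than the standard error of 0.11 to 0.14. With 1 array per line and culture the difference was not tested. VARS1 had a value of -0.67 in wt and 0.0049 in wt/GFP, AARS1 of -0.12 and 0.0074, and IARS2 of 0.02 and -0.0079.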

How the results depend on the processing

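Across 33 members and 16 alternatives, 413 values kept their direction and side of the threshold. Another 60 kept their direction and lost a call, and 23 kept it and gained one. The other 26 changed sign, and some of these lost or gained a call as well. FARSB, HARS1, WARS1, FARS2 and LARS2 were called lower in every alternative that could be run for them.

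Moderation without trend called 3829 of all genes against 7059, and 4 cytosolic and 2 mitochondrial enzymes lower with 0 of either higher, and 14 of the 20 called members lost the call. After median centring the cytosolic enzymes called lower numbered 16 and the mitochondrial ones 11, beside 4645 of 14337 genes. Without shared probe sets 6 of the 11 cytosolic enzymes that could be tested were called lower, beside 1702 of 11224 genes. The 1 cytosolic enzyme called higher became 0 after median centring, scaling to hybridisation controls or no filter; it was 0 by construction without shared probe sets, since all probe sets of LARS1 are of that kind. The 2 mitochondrial ones became 0 after quantile normalization, median centring, scaling to hybridisation controls or no filter. The cause was not tested. Leaving out 1 array, in fits with no cell line term where the lone array is assumed to vary like the others, gave 6 to 9 cytosolic and 3 to 7 mitochondrial enzymes lower, and 0 to 1 and 1 to 2 higher. The median change became -0.77 and -0.97 for cytosolic and -0.73 and -0.93 for mitochondrial enzymes after median centring and scaling to hybridisation controls. With all probe sets averaged the mitochondrial median was -0.21 and the cytosolic minus mitochondrial gap -0.18; without 1 array the mitochondrial median ranged from -0.32 to -0.25.

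Without the replicate block, that is without the cell line that pairs the arrays, 9 cytosolic and 5 mitochondrial enzymes were called lower. Of all 14337 genes 2516 were called lower in that fit. The calls lost among the members were those of KARS1 (adjusted p = 0.0948) and EARS2 (0.0518).

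Signs turned after quantile normalization for AARS1 (0.020), EPRS1 (0.11) and CARS2 (-0.076). They turned after median centring and scaling to hybridisation controls for CARS1 (-0.36 and -0.56), LARS1 (-0.051 and -0.25), CARS2 (-0.32 and -0.52), IARS2 (-0.39 and -0.59) and VARS2 (-0.22 and -0.42), and after the latter for WARS2 (-0.060). With probe sets averaged CARS1 was -0.66, CARS2 -0.21 and TARS1 0.35, YARS1 (-0.20), EARS2 (-0.18) and RARS2 (-0.15) lost their calls, and FARSB (-0.46) kept it, and without shared probe sets YARS1 was 0.85. Without 1 array the values spanned 0 for 6 uncalled members: -0.112 to 0.0024 for AARS1, -0.052 to 0.121 for CARS1, -0.0084 to 0.149 for CARS2, -0.019 to 0.031 for IARS2, -0.294 to 0.011 for SARS2 and -0.078 to 0.425 for VARS2. Beyond these counts, single probe sets of opposite sign gave -2.43 (with spheroid signals below the filter) and -0.41 for CARS1, -0.49 for CARS2, 0.47 for EARS2, 0.21 for EPRS1, 0.22 for FARSB, 0.30 for RARS2, 0.96 for TARS1 and 0.85 for YARS1.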
